A study of Mus musculus with 30 samples.

Results

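Abra, Srf, Ankrd1, Ankrd23, Xirp1, Xirp2, Csrp3 and Acta1 are 8 muscle genes tied to the actin-regulated transcription factor SRF and to the response of cardiomyocytes to stretch. They were taken by name from 2 tables of left ventricular RNA, as 8 of 49671 genes in the peptide study and 8 of 56386 in the antibody study. The list was drawn up with both treatment comparisons already known, and Abra had the 4th smallest p of 11985 genes in the peptide comparison. The differences between treated and control hearts are therefore given for these 8 genes as a description without a test. The covariation of the genes between hearts of the same group was not used to choose them and was tested.

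All mice were male, wild type C57BL6J mice, and every library was made from left ventricle. In the peptide study, 7 mice received Aβ42, the 42-residue amyloid β peptide in its human form, and 7 received ScrAβ42, a scrambled peptide, by daily intraperitoneal injection over 4 weeks from 12 weeks of age. The labels give 1 mg per day, whereas the study's methods state a microgram dose and an age range that begins below that of the labels. In the antibody study, 8 mice received 3D6, an antibody that neutralises Aβ42, and 8 received a control antibody, with mice aged 12 weeks at their baseline assessment. According to the study's methods all of these mice ate a high-fat diet and were injected weekly from the start of the diet, whereas the series' own description says that they had also been given Aβ42, and this difference was not resolved. Neither design holds a group that ties the antibody to the peptide mice, so each study was analysed within its own table.

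Abra, also called STARS, is an actin-binding protein of striated muscle that promotes actin polymerisation. Less free monomeric actin releases the coactivators MRTF-A and MRTF-B, which enter the nucleus and drive SRF at CArG boxes in the promoters of actin and other muscle genes, Srf and Abra among them. The targets described here act close to the sensor of force itself. Ankrd1 and Ankrd23 are ankyrin repeat proteins that bind the N2A spring region of titin, Xirp1 and Xirp2 are actin-binding Xin proteins of the intercalated disc, Csrp3 is the muscle LIM protein of the Z-disc, and Acta1 is the skeletal α-actin that the ventricle expresses in fetal life and under load.

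In GRCm38, with GENCODE vM21 annotation, all 8 are protein-coding genes. Abra lies on chromosome 15 (chr15:41864076-41869720, minus strand), Srf on chromosome 17 (chr17:46548329-46556175, minus strand), and Ankrd1 on chromosome 19 (chr19:36111961-36120099, minus strand). Ankrd23 lies on chromosome 1 (chr1:36530188-36536883, minus strand), Xirp1 on chromosome 9 (chr9:120013755-120023598, minus strand), and Xirp2 on chromosome 2 (chr2:67446002-67526614, plus strand). Csrp3 is at chr7:48830398-48848033 on the minus strand and Acta1 at chr8:123891769-123894751 on the minus strand.

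RefSeq promoter sequence of build GRCm38.p6, covering 250 bases before and 50 bases after a start site, was matched by symbol for 6 of the 8 genes, with 8 promoters in all, and was not matched for Abra and Xirp1. The CArG box was present in 2 of the 6 genes, Srf and Acta1, against 1.63% of all 32851 promoters in the table. A near-CArG box, with 1 G or C inside the A/T core, was present in Acta1 and in 8.5% of all promoters. The MCAT element CATTCC, the site of TEAD factors, was searched on both strands and was present in 1 promoter of Acta1, 1 of Ankrd1 and both of Ankrd23, and in 14.7% of all promoters. The TATA box TATAAA, also searched on both strands, was found in Acta1 and Srf and in 13.6% of all promoters, and no match in these genes overlapped another. Xirp2 and Csrp3 held none of these letters in the windows searched. The promoters of Srf, Acta1 and Ankrd1 are shown, 5′ to 3′ on the gene's strand, because Srf and Acta1 held the CArG boxes and Ankrd1 is an example of MCAT elements without one. Capitals mark the CArG and near-CArG boxes in Srf and Acta1 and the MCAT elements in Ankrd1.
Srf (chr17:46556113-46556412, minus strand): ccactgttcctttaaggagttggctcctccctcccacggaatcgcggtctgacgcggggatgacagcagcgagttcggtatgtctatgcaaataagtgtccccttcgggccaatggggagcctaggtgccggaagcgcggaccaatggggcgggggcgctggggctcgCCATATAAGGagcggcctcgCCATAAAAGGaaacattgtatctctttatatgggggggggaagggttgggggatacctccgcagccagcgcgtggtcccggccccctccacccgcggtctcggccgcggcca
Acta1 (chr8:123894726-123895025, minus strand): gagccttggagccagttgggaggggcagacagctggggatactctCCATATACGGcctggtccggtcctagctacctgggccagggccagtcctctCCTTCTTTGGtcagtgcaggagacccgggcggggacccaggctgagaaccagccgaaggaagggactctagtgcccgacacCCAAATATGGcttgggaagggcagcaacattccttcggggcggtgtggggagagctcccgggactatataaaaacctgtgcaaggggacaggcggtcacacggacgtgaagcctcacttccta
Ankrd1 (chr19:36119795-36120094, minus strand): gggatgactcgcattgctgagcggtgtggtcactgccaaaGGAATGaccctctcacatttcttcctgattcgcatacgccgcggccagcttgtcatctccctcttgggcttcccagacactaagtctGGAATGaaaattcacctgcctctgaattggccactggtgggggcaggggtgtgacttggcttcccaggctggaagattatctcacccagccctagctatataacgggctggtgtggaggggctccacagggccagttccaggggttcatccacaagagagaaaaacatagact
Distances are counted from the start of the RefSeq promoter window, which differs from the GENCODE gene ends given above. Srf held a pair of CArG boxes, whose first bases were 82 and 62 bases before the start, and Acta1 held 1, at 73 bases before it. The near-CArG boxes of Acta1 began 205 and 154 bases before the start. Both MCAT elements of Ankrd1 were read on the opposite strand, as GGAATG, at 210 and 123 bases before the start. A match describes the letters only and was not taken as a binding site.

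The library totals ranged from 4478991 to 6015767 counts in the peptide study and from 6397192 to 8310478 in the antibody study, and all 8 genes passed the filter of a mean of 10 counts per heart in both. Expression is given as CPM, counts scaled to the library size and by TMM factors, which correct for differences in composition between libraries. Summed levels of markers, here and below, were scaled to the library total only, without TMM factors. Ventricular markers were high in every heart, with the summed level of 8 markers between 45600 and 83900 CPM. The atrial myosin light chain Myl7 exceeded 50 CPM in 4 of 7 Aβ42 hearts, 1 of 7 ScrAβ42 hearts, 4 of 8 3D6 hearts and 1 of 8 control antibody hearts. The 6 atrial markers together reached 16500 CPM in Aβ42 hearts and 5460 CPM in ScrAβ42 hearts, with medians of 1700 and 36.4 CPM. All 6 had a positive log2 fold change with Aβ42, and their part in the results was not tested beyond the values given beside them. Smooth muscle, adipocyte and mesothelial markers were also higher in mean with Aβ42, in 5 of 5 tested genes each. Their median log2 fold changes were 1.22, 2.31 and 0.89, although the median summed level of the smooth muscle markers was 278 CPM in Aβ42 hearts and 306 CPM in ScrAβ42 hearts. The 5 blood markers were all lower, with a median of -1.37, as were the 3 leukocyte markers tested, at -0.18. Of the 8 ventricular markers 2 were higher and 6 lower with Aβ42, with a median of -0.11. Fibroblast, endothelial and fast skeletal muscle markers went both ways. With 3D6 all 5 atrial markers tested were lower, with a median of -0.88, although their median summed level was 184 CPM in 3D6 hearts and 39.4 CPM in control hearts, whose highest heart reached 7190 CPM. The 6 fibroblast, 5 endothelial, 5 blood, 3 leukocyte and 2 mesothelial markers tested were also all lower with 3D6. Their median log2 fold changes were -0.07, -0.19, -0.09, -0.13 and -0.56, while ventricular and smooth muscle markers went both ways. No marker passed the adjusted threshold of edgeR in either comparison. The share of counts from the mitochondrial genome ranged from 12.9% to 22.2% in the peptide study and from 25.9% to 37.8% in the antibody study. In these bulk samples, fewer cells of a type and less RNA per cell cannot be told apart.

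Over all genes, the quasi-likelihood test of edgeR (Benjamini-Hochberg adjusted p under 0.05) called 0 of 11985 genes for Aβ42 against ScrAβ42, with 748 (6.24%) at an unadjusted p under 0.05, while DESeq2 called 12 and limma-voom 0. For 3D6 against the control antibody it called 0 of 12274 genes, with 437 (3.56%) at an unadjusted p under 0.05, and DESeq2 and limma-voom both called 0. With Aβ42, 7 of the 8 genes had a negative log2 fold change, with a median of -0.20 against 0.0015 over all genes. With 3D6, 4 were negative and 4 positive, with a median of -0.02 against -0.01 over all genes. At an unadjusted p under 0.05, 4 of the 8 genes were called with Aβ42, where 6.24% of all genes were, and 0 with 3D6, where 3.56% were. The rule knew this contrast, so nothing is read from these counts.

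**Figure D1:**
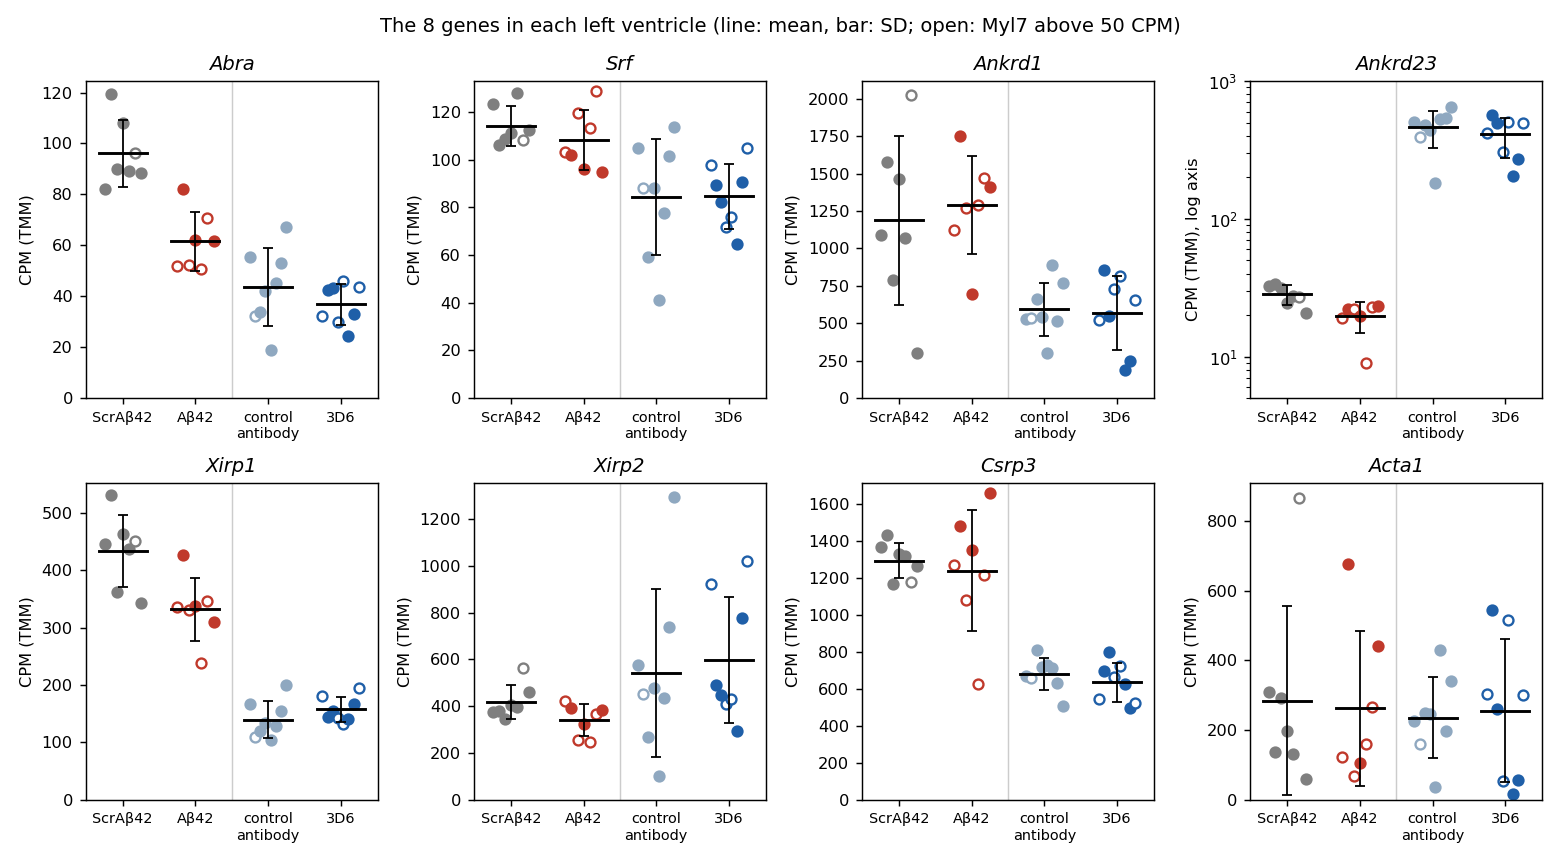
Level of each gene in each heart (y axis, CPM after TMM scaling, linear from 0 except for Ankrd23, which has a log axis) by group (x axis), with 7, 7, 8 and 8 hearts. Horizontal lines are means, bars are SD and open points are hearts with Myl7 above 50 CPM. The grey line divides tables that were processed separately. In the panel of Abra, 6 of 7 Aβ42 hearts lie below every ScrAβ42 heart.

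Abra, the actin regulator at the head of the pathway, was lower in Aβ42 hearts. Its level was 50.6, 61.7 and 82.1 CPM (lowest, median and highest) in Aβ42 hearts and 82.0, 89.8 and 119.5 CPM in ScrAβ42 hearts. Hence 6 of 7 Aβ42 hearts lay below every ScrAβ42 heart, a pattern that 0.442% of all genes showed, and only mouse Abeta42_3452, at 82.14 CPM, reached the lowest ScrAβ42 heart, mouse ScrAbeta42_3441 at 81.97 CPM. The mean was 61.6 ± 11.6 CPM with Aβ42 and 96.2 ± 13.2 CPM with ScrAβ42 (SD, n = 7 each), a log2 fold change of -0.65 (SE 0.11) or 0.639-fold. The adjusted p from edgeR was 0.097 and that from DESeq2 was 0.000367, and over the 25 alternatives run it ranged from 0.000367 to 0.517. These p-values belong to the comparison in view when the list was made, and they describe the ranking of Abra without testing it.

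The log2 fold change of Abra was also negative among hearts with low Myl7, and smaller in size there. Among hearts with Myl7 at or under 50 CPM, a threshold chosen after seeing the data, Abra was 61.7, 62.0 and 82.1 CPM in the 3 Aβ42 hearts. It was 82.0 to 119.5 CPM in the 6 ScrAβ42 hearts, and the log2 fold change was -0.49 (SE 0.129, edgeR adjusted p = 0.517). The part of atrial tissue in the difference was not tested. The 4 Aβ42 hearts with Myl7 above 50 CPM ranged from 50.6 to 70.5 CPM, and the 1 such ScrAβ42 heart, mouse ScrAbeta42_3448, stood at 96.3 CPM. An atrial score was taken as the mean log2 CPM of Sln, Myl7, Myl4, Bmp10 and Mybphl. Adjusting for this score gave -0.56 (SE 0.121, edgeR adjusted p = 0.313). Adjusting for the mitochondrial share gave -0.65 (SE 0.112, edgeR adjusted p = 0.0618).

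**Figure D2:**
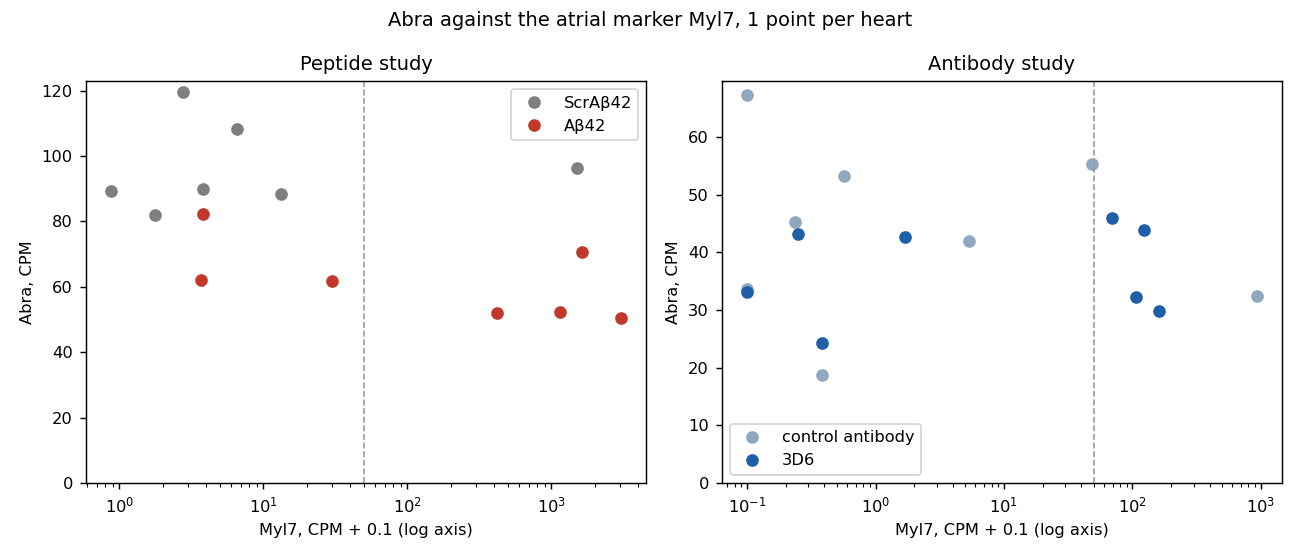
Abra (y axis, CPM, linear) against the atrial marker Myl7 (x axis, CPM plus 0.1, log axis) with 1 point per heart, in the peptide study (left) and the antibody study (right). The dashed line marks 50 CPM. In the left panel Aβ42 hearts lie low, and the highest of them, at 82.14 CPM, is just above the lowest ScrAβ42 heart, at 81.97 CPM. Both of these lie left of the line, and right of it there is only 1 ScrAβ42 heart, at 96.3 CPM. No such order is seen between 3D6 and control hearts in the right panel.

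In the antibody study the levels of Abra overlapped throughout. It was 24.2, 37.9 and 45.9 CPM in 3D6 hearts and 18.8, 43.6 and 67.3 CPM in control antibody hearts. The lowest and the highest of the 16 hearts, mouse 22 and mouse 8, were both controls. The means were 36.8 ± 7.99 and 43.5 ± 15.3 CPM (SD, n = 8 each), and the log2 fold change of -0.24 (SE 0.20) was little more than its error. Every alternative kept the negative sign, from -0.36 with the mitochondrial share as a covariate to -0.12 with the immediate early genes as a covariate. Abra was quantified from a single transcript, and its counts per heart ran from 132 to 676 over both studies.

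Srf, the transcription factor that reads the actin signal, overlapped between the groups of the peptide study. It was 95.0, 103.1 and 128.7 CPM in Aβ42 hearts and 106.1, 111.2 and 128.2 CPM in ScrAβ42 hearts, with means of 108.3 ± 12.6 and 114.1 ± 8.35 CPM (SD, n = 7 each). Its log2 fold change was -0.07 (SE 0.08) and in ScrAβ42 hearts it varied least of the 8 genes, with a coefficient of variation of 7.32%. Among hearts with Myl7 at or under 50 CPM, Srf was 95.0 to 102.2 CPM in the 3 Aβ42 hearts and 106.1 to 128.2 CPM in the 6 ScrAβ42 hearts, and the log2 fold change was -0.24. That threshold was chosen after seeing the data. The share of all genes whose groups lie apart in these hearts was not counted, so nothing is read from the gap. In the antibody study it was 64.7, 85.8 and 105.0 CPM with 3D6 and 41.2, 88.1 and 113.9 CPM with the control antibody, a log2 fold change of 0.01 (SE 0.17). Srf had no direction between the antibody groups, since 11 of 27 alternatives turned its sign.

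The titin-binding ankyrin repeat genes had log2 fold changes of opposite sign with Aβ42, a difference that was not tested. Neither passed the adjusted threshold (edgeR adjusted p = 0.7315 for Ankrd23 and 0.9657 for Ankrd1). Ankrd23 was 8.93, 22.1 and 23.2 CPM in Aβ42 hearts and 20.7, 27.7 and 33.4 CPM in ScrAβ42 hearts. All 7 Aβ42 hearts lay below the ScrAβ42 median, as for 3.81% of all genes, but the lowest ScrAβ42 heart, mouse ScrAbeta42_3449 at 20.7 CPM, lay inside the Aβ42 range. The log2 fold change was -0.52 (SE 0.17), and it was -0.39 without hearts with Myl7 above 50 CPM. Ankrd1, in contrast, was 698 to 1754 CPM in Aβ42 hearts and 299 to 2026 CPM in ScrAβ42 hearts, which enclosed the treated range. Its log2 fold change of 0.12 (SE 0.32) turned negative, to -0.04, with an atrial covariate, and to -0.05 without mouse ScrAbeta42_3449, the lowest heart.

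With 3D6, Ankrd23 was 206.1, 458.7 and 571.4 CPM against 180.7, 492.4 and 648.2 CPM in control hearts, a log2 fold change of -0.18 (SE 0.23). Ankrd1 was 184.8, 603.4 and 853.2 CPM against 303.8, 535.3 and 888.2 CPM, a log2 fold change of -0.05 (SE 0.28). The sign of Ankrd1 turned in 5 of 27 alternatives, whereas Ankrd23 stayed negative in all 27, from -0.30 without control mouse 22 to -0.08 without 3D6 mouse 24. In this table, which lists transcripts, the most abundant of 4 transcripts made up 75.8 ± 6.1% of Ankrd23 in 3D6 hearts and 78.7 ± 8.88% in control hearts. For Ankrd1, the most abundant of 6 made up 95.7 ± 2.06% in 3D6 hearts and 92.6 ± 7.98% in control hearts (SD, n = 8 each).

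The level of Ankrd23 in the peptide table is uncertain. Its mean was 28.2 CPM in ScrAβ42 hearts and 464.7 CPM in control antibody hearts, a ratio of 16.5 between tables that were processed separately, against a median ratio of 0.665 over 11361 genes. Only 0.29% of genes had a ratio as high, and the other 7 genes lay between 0.322 and 1.3. The counts behind the peptide values were 65 to 189 per heart. Mice, diet and the form of the counts, per gene or per transcript, differ between the tables and cannot be told apart. The values of Ankrd23 in Aβ42 and ScrAβ42 hearts rest on these low counts.

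The Xin genes of the intercalated disc both had a negative log2 fold change with Aβ42. Neither passed the adjusted threshold (edgeR adjusted p = 0.699 for Xirp1 and 0.796 for Xirp2). Xirp1 was 238.7, 335.8 and 426.4 CPM in Aβ42 hearts and 343.6, 446.6 and 531.5 CPM in ScrAβ42 hearts. In 5 of 7 Aβ42 hearts it lay below every ScrAβ42 heart, as for 1.42% of all genes, and all 7 lay below the ScrAβ42 median. The means of 332.1 ± 55.4 and 433.7 ± 63.4 CPM (SD, n = 7 each) gave a log2 fold change of -0.39 (SE 0.12), and the value stayed negative in all 25 alternatives, at -0.27 without hearts with Myl7 above 50 CPM. Xirp2 was 247.3, 367.8 and 422.1 CPM against 346.1, 398.4 and 564.7 CPM, so that the groups overlapped more. Its log2 fold change of -0.29 (SE 0.14) shrank to -0.11 without hearts with Myl7 above 50 CPM.

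With 3D6 the Xin genes had the opposite sign. Xirp1 was 131.5, 150.3 and 194.7 CPM in 3D6 hearts and 104.9, 131.3 and 199.6 CPM in control hearts, so that all 8 3D6 hearts lay above the control median, as for 2.22% of all genes, yet the highest heart was a control, mouse 8. The log2 fold change was 0.17 (SE 0.13), 0.05 with the mitochondrial covariate and 0.08 without hearts with Myl7 above 50 CPM. Xirp2 was 292.4, 468.4 and 1023 CPM against 100.8, 466.1 and 1296 CPM, with nearly equal medians and a log2 fold change of 0.14 (SE 0.40). Its sign turned in 4 of 27 alternatives, among them the mitochondrial covariate and the removal of control mouse 22, the lowest heart. The treatments were applied to different mice in separate studies, and the difference between the peptide and antibody effects was not tested.

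The differences of Csrp3 and Acta1 were within their SE in both studies. Csrp3 was 624.1, 1266 and 1655 CPM in Aβ42 hearts, a span wider on both sides than the 1165, 1318 and 1428 CPM in ScrAβ42 hearts, and the log2 fold change was -0.06 (SE 0.16). The heart at 624.1 CPM was mouse Abeta42_3457, which also had the lowest Abra, Ankrd23, Xirp1 and Xirp2 of the Aβ42 group, the highest Myl7 of all hearts at 3043 CPM and the lowest mitochondrial share of the peptide study. Without mouse Abeta42_3457 the log2 fold change of Csrp3 turned to 0.05. With 3D6, Csrp3 was 496.6, 644.4 and 799.6 CPM against 509.0, 688.9 and 811.6 CPM, a log2 fold change of -0.10 (SE 0.11).

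Acta1 had the widest spread of the 8 genes in Aβ42, ScrAβ42 and 3D6 hearts, with coefficients of variation of 84.5%, 95.7% and 80.0%, whereas in control hearts it had 49.7% and Xirp2 66.1%. It was 68.4, 158.7 and 676.2 CPM in Aβ42 hearts and 59.1, 196.1 and 867.1 CPM in ScrAβ42 hearts, and 15.6, 279.7 and 544.0 CPM with 3D6 against 35.2, 236.7 and 430.2 CPM with the control antibody. The highest heart stood 14.7-fold above the lowest within the ScrAβ42 group and 34.9-fold within the 3D6 group. The log2 fold changes of -0.12 (SE 0.63) and 0.12 (SE 0.62) were far inside their errors. The first ran from -0.56 without mouse Abeta42_3452 to 0.48 without mouse ScrAbeta42_3448, rose to 1.12 without hearts with Myl7 above 50 CPM and turned its sign in 6 of 25 alternatives. The second turned in 5 of 27, to -0.36 in limma-voom. A single transcript made up 97.3% of Csrp3 and 99.9% of Acta1 in 3D6 hearts.

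**Figure D3:**
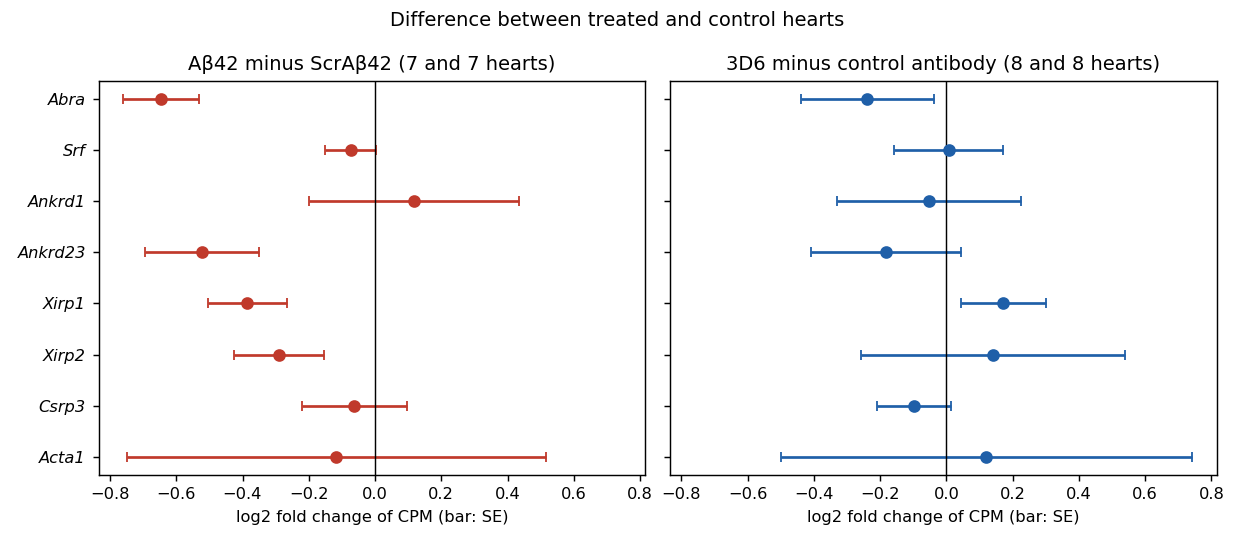
Log2 fold change of each gene (points) with its standard error (bars) for Aβ42 minus ScrAβ42 (left) and 3D6 minus control antibody (right), on the same x axis. Abra, Ankrd23, Xirp1 and Xirp2 lie to the left of 0 by more than their SE in the left panel, at -0.65, -0.52, -0.39 and -0.29, and Acta1 has the widest bar in both panels.

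Per kilobase of exon, Csrp3 and Ankrd1 were the most abundant of the 8 genes in all 4 groups, followed by Acta1, or by Ankrd23 in control antibody hearts. In ScrAβ42 hearts the means were 483.9 CPM per kb for Csrp3, 411.4 for Ankrd1, 185.2 for Acta1, 74.3 for Xirp1, 39.4 for Srf, 35.0 for Xirp2, 32.3 for Abra and 10.5 for Ankrd23. Among neighbours in this order the ranges over hearts were apart for Xirp1 and Srf and for Abra and Ankrd23, and overlapped for the other pairs. In control antibody hearts the order was Csrp3 at 254.2 CPM per kb, Ankrd1 at 205.2, Ankrd23 at 172.3, Acta1 at 153.3, Xirp2 at 45.4, Srf at 29.2, Xirp1 at 23.95 and Abra at 14.6, and the ranges of every neighbouring pair overlapped. Abra, the upstream regulator, was thus expressed below all of the other genes except Ankrd23 in the peptide table.

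The variation between hearts of the same group was then used to ask whether the genes moved together. Log2 CPM had the group means subtracted, the 7 relations with Abra were tested in each study by permuting hearts within groups (100000 permutations, two-sided), and p-values were adjusted over the 14 relations. In the peptide study (14 hearts) Xirp1 passed, with a Pearson r of 0.716 (permutation p = 0.00662, adjusted p = 0.0141) and a Spearman rho of 0.732 (permutation p = 0.00475, adjusted p = 0.0269). Within the groups r was 0.756 over the 7 Aβ42 hearts and 0.66 over the 7 ScrAβ42 hearts, and 0.184% of all genes had an r with Abra as high. Without the hearts of mice Abeta42_3451 and Abeta42_3457, the farthest from the median of Abra before group means were subtracted, r was 0.703, and its adjusted permutation p was 0.0972 over the 12 hearts left. Without mouse ScrAbeta42_3442 or mouse Abeta42_3452, the hearts with the highest Abra of their groups, r was 0.653 and 0.598 and no longer passed. These are also the 2 hearts farthest from their group mean, and without both r was 0.455 (adjusted permutation p = 0.324 over 12 hearts). Leaving out hearts chosen for extreme Abra narrows its range, so the lower r does not decide whether the relation with Xirp1 rests on them. Without hearts with Myl7 above 50 CPM r was 0.759 over 9 hearts, with an adjusted permutation p of 0.0899.

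The other 6 relations did not pass in the peptide study. The Pearson r with Abra was 0.511 for Csrp3, 0.41 for Ankrd23, 0.408 for Acta1, 0.4 for Ankrd1 and 0.353 for Xirp2, and -0.262 for Srf, with adjusted permutation p-values from 0.188 to 0.423. Their Spearman rho ran from -0.429 for Srf to 0.534 for Ankrd1, with adjusted permutation p-values from 0.0784 to 0.3. Ankrd23 fell to 0.11 without the 2 hearts farthest from the median. Srf had a negative r with Abra in both groups, -0.0932 over Aβ42 hearts and -0.635 over ScrAβ42 hearts, but the r over all 14 hearts was 0.0819 when scaled to the library total and -0.56 without mouse Abeta42_3458.

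**Figure D4:**
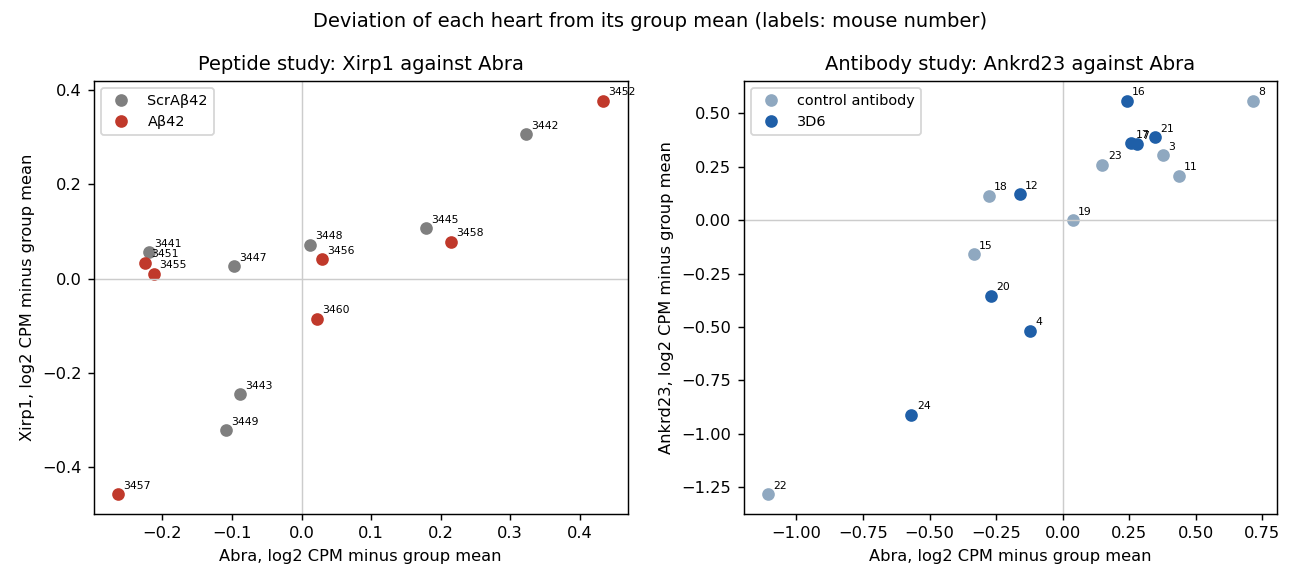
Deviation of each heart from its group mean in log2 CPM, for Abra (x axis) against Xirp1 in the peptide study (left, 14 hearts) and against Ankrd23 in the antibody study (right, 16 hearts), with mouse numbers. The r is 0.716 on the left and 0.901 on the right, and mice 22 and 24 lie far to the lower left of the right panel.

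In the antibody study (16 hearts) 6 of the 7 relations passed, in a table where many genes ran with Abra: 0.799% of all genes had an r as high as that of Srf, 1.83% as that of Xirp2, 3.81% as that of Acta1 and 6.47% as that of Xirp1. Ankrd23 had the highest r with Abra at 0.901, with a permutation p of 1e-05, the smallest that these permutations can give, an adjusted p of 0.00014, and a rho of 0.815 (permutation p = 0.00011, adjusted p = 0.00154). It held in both groups, at 0.917 over 3D6 hearts and 0.931 over control hearts, and only 0.057% of all genes had an r as high. Srf followed with an r of 0.829 (permutation p = 0.00056, adjusted p = 0.00261) and a rho of 0.694 (permutation p = 0.0077, adjusted p = 0.0269). Xirp2 had an r of 0.788 (permutation p = 0.00153, adjusted p = 0.00535) and a rho of 0.647 (permutation p = 0.01, adjusted p = 0.0281). The r of Srf, Xirp1 and Xirp2 was higher over control hearts, at 0.919, 0.907 and 0.95, than over 3D6 hearts, at 0.514, 0.101 and 0.313, a difference that was not tested.

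Acta1 had an r of 0.744 (permutation p = 0.00034, adjusted p = 0.00238) and a rho of 0.541 (permutation p = 0.0203, adjusted p = 0.0474). Xirp1 had an r of 0.695 (permutation p = 0.00704, adjusted p = 0.0141) and a rho of 0.703 (permutation p = 0.00645, adjusted p = 0.0269). Ankrd1 passed by r, at 0.608 (permutation p = 0.00483, adjusted p = 0.0135), but not by rho, at 0.368 (permutation p = 0.138, adjusted p = 0.194), and 12.4% of all genes had an r with Abra as high. Csrp3 did not pass, with an r of -0.218 (permutation p = 0.4, adjusted p = 0.423) and a rho of -0.229 (permutation p = 0.39, adjusted p = 0.39).

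The relations were also taken without the hearts most extreme in Abra. This narrows the range of Abra, so it cannot decide whether a few hearts carried the pattern. Control mouse 22 and 3D6 mouse 24 had the lowest Abra of their groups, at 18.8 and 24.2 CPM, and the lowest Srf and Acta1. Without these 2 hearts, the farthest from the median of Abra, r was 0.761 for Ankrd23, 0.618 for Xirp1, 0.593 for Srf, 0.52 for Acta1, 0.514 for Xirp2 and 0.288 for Ankrd1. Only Ankrd23 still passed then (adjusted permutation p = 0.0035 over the 14 hearts left), and the cause of the lost calls was not tested. Without control mice 22 and 8, the hearts farthest from their group mean of Abra, r was 0.813 for Ankrd23 and 0.7 for Acta1, which both passed (adjusted permutation p = 0.00294 and 0.0274 over the 14 hearts left), and from 0.467 to 0.596 for Xirp2, Xirp1, Ankrd1 and Srf, which did not.

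The share of mitochondrial counts differed between hearts. It was lowest in control mouse 22, at 25.9%, and 37.7% in control mouse 8, which had the highest Abra, Srf, Xirp1 and Xirp2 of all 16 hearts. The highest share, 37.8%, was in 3D6 mouse 4, where Abra was 33.1 CPM and Acta1 56.5 CPM, both below the 3D6 medians, while Srf at 90.6 CPM, Xirp1 at 167.7 CPM and Xirp2 at 778.6 CPM were above them. With this share taken out, r with Abra was 0.902 for Ankrd23, 0.818 for Ankrd1, 0.795 for Acta1 and 0.647 for Srf, all of which passed. Xirp1 dropped to 0.318 and Xirp2 to 0.543, with adjusted permutation p-values of 0.295 and 0.11 over the 16 hearts, and Csrp3 changed sign to 0.572 (adjusted permutation p = 0.092). With the atrial score taken out the 6 relations that passed still did, with r from 0.63 to 0.905.

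Among all pairs of the 8 genes, given as a description, 23 of 28 were positive in the antibody study, with a median r of 0.58, and 22 of 28 in the peptide study, with a median of 0.342. The highest r in the antibody study was 0.956 between Srf and Xirp2, followed by 0.926 between Ankrd23 and Acta1, 0.901 between Abra and Ankrd23, 0.86 between Xirp1 and Xirp2, and 0.842 between Ankrd1 and Acta1. The 21 pairs without Csrp3 were all positive, with a median r of 0.719, whereas Csrp3 ran opposite to Xirp1 at -0.7, Xirp2 at -0.69 and Srf at -0.56. In the peptide study the median over the 21 pairs without Csrp3 was 0.331, and 1 of the 7 pairs with Srf was positive, its r with Ankrd1 being 0.0582. There Csrp3 ran with Ankrd23 at 0.805 and Xirp1 at 0.654.

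**Figure D5:**
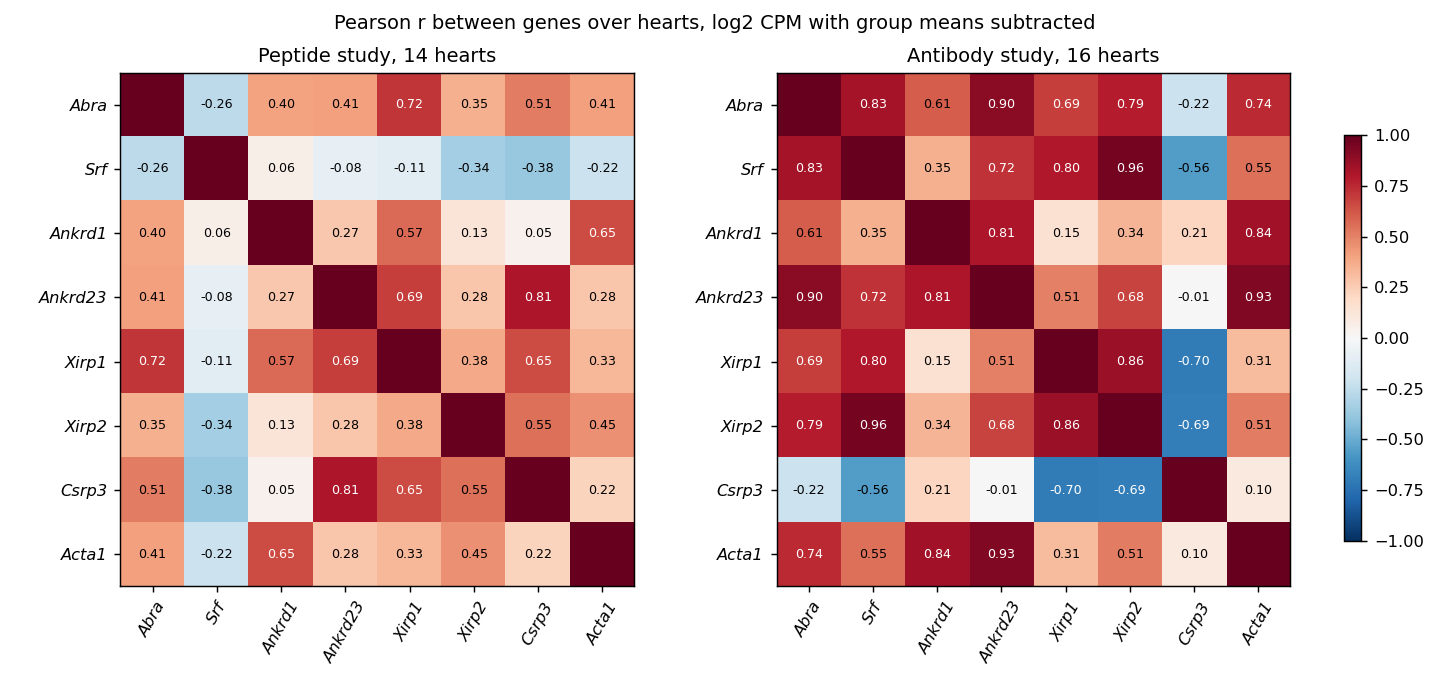
Pearson r between each pair of genes over hearts, from log2 CPM with group means subtracted, in the peptide study (left, 14 hearts) and the antibody study (right, 16 hearts), from blue at -1 through white at 0 to red at 1. The row of Srf is pale or blue on the left, with values up to 0.0582, and red except for Csrp3 on the right, where its r with Xirp2 is 0.956.

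Likeness to Abra was also ranked over all 11360 genes tested in both studies, by the smaller of the r of each study. Outside the 8 genes the highest were Hmga1, a chromatin protein (0.772 in the peptide and 0.764 in the antibody study), Rap1a, a small GTPase (0.745 and 0.718), Tlr4, the lipopolysaccharide receptor (0.705 and 0.909), Hspa1l, a heat shock protein (0.693 and 0.742), and Klhl34 (0.667 and 0.86). Of the 8 genes, Xirp1 ranked 4th among all genes, Ankrd23 286th, Acta1 298th, Ankrd1 314th, Xirp2 475th, Csrp3 5595th and Srf 6159th. With Aβ42, Tlr4 had a log2 fold change of -0.42 (SE 0.126) and Klhl34 one of -0.40 (SE 0.144), whereas those of Hmga1, Rap1a and Hspa1l were 0.03, 0.02 and 0.03.

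Other genes of the pathway were counted from lists of genes grouped by function. These lists were drawn up with earlier results of these data known, so their counts are given as a description. Upstream, none of the 24 SRF cofactors and signalling genes, among them the coactivator genes Mrtfa and Mrtfb, passed an unadjusted p of 0.05 with Aβ42, where 6.24% of all genes did, and 9 were higher and 15 lower, with a median log2 fold change of -0.02. The smallest p-values were those of Mef2d, a MADS-box factor (215.9 against 234.2 CPM, log2 fold change -0.12, SE 0.07, unadjusted p = 0.12 and adjusted p = 0.829 in edgeR), and Fhl2, a LIM protein that binds SRF (911.7 against 1115 CPM, -0.29, SE 0.21, adjusted p = 0.87). With 3D6, 19 of the 24 were higher and 5 lower, with a median of 0.10 against -0.01 over all genes, and 1 was called at an unadjusted p under 0.05, where 3.56% of all genes were. That gene was Elk1, an SRF partner of the ternary complex type, at 10.2 against 7.08 CPM (log2 fold change 0.53, SE 0.19, edgeR adjusted p = 0.949). Elk3, of the same type, was 35.8 against 39.1 CPM (-0.13, SE 0.08, adjusted p = 0.949).

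Downstream, 14 of 33 other SRF targets of actin and contraction were higher and 19 lower with Aβ42, and 2 and 3 of them at an unadjusted p under 0.05, where 3.38% and 2.86% of all genes were. Myh7, the slow β-myosin heavy chain, was 468.7 ± 92.8 against 656.6 ± 130.6 CPM (SD, n = 7 each), with a log2 fold change of -0.49 (SE 0.15, edgeR unadjusted p = 0.00409, adjusted p = 0.693). Actg1, the cytoplasmic γ-actin, was listed at only 3.66 against 5.87 CPM (-0.67, SE 0.23, edgeR adjusted p = 0.757). That is far below its level in the antibody study, so its level in the peptide table is uncertain like that of Ankrd23. With 3D6, 11 of the 33 were higher and 22 lower, with 0 and 4 at an unadjusted p under 0.05, where 1.27% and 2.29% of all genes were. Tagln2, a calponin-family actin binder, was 41.0 against 51.0 CPM (-0.32, SE 0.11, edgeR adjusted p = 0.949) and Tpm4, a cytoskeletal tropomyosin, 75.7 against 90.8 CPM (-0.26, SE 0.10, edgeR adjusted p = 0.949).

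Of 23 titin and Z-disc partners, 21 were tested in each study, and 7 were higher and 14 lower with Aβ42, with 1 at an unadjusted p under 0.05, where 6.24% of all genes were. That was Csrp2, the smooth muscle relative of Csrp3, at 41.8 ± 63.8 against 13.7 ± 7.61 CPM (SD, n = 7 each; log2 fold change 1.62, SE 0.73, edgeR adjusted p = 0.794), which ranged from 9.13 to 184.3 CPM in Aβ42 hearts. The summed level of 5 smooth muscle markers reached 2780 CPM in Aβ42 hearts and 469 CPM in ScrAβ42 hearts. Mypn, the Z-disc protein that binds Ankrd1, was 270.0 against 324.1 CPM (-0.26, SE 0.13, edgeR adjusted p = 0.808). With 3D6, 12 were higher and 9 lower and none was called at an unadjusted p under 0.05, the smallest p-values being those of Capn3, at 5.02 against 4.14 CPM, and Csrp1, at 32.4 against 37.5 CPM (edgeR adjusted p = 0.949 each).

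Of the ventricular stress and hypertrophy genes, 8 of 14 were higher and 6 lower with Aβ42, with 2 and 4 at an unadjusted p under 0.05, where 3.38% and 2.86% of all genes were. Besides Myh7, which is also in this list, Rcan1, the calcineurin target and inhibitor, was 57.7 against 69.3 CPM (-0.27, SE 0.10, edgeR adjusted p = 0.757). With 3D6, 2 of 13 were higher and 11 lower, with a median of -0.18, and none was called at an unadjusted p under 0.05, Gdf15 at 1.85 against 2.63 CPM and Lgals3 at 2.97 against 4.33 CPM having the smallest p-values (edgeR adjusted p = 0.949 each). Of the immediate early genes, many of which carry SRF sites, 18 of 29 were higher and 11 lower with Aβ42, with 3 and 5 at an unadjusted p under 0.05, against the same shares of all genes. Jun was 45.5 against 63.7 CPM (-0.48, SE 0.08, edgeR adjusted p = 0.097) and Rgs2, a regulator of G protein signalling, 83.6 against 47.0 CPM (0.83, SE 0.16, edgeR adjusted p = 0.274). With 3D6, 9 of 28 were higher and 19 lower, with 1 and 4 at an unadjusted p under 0.05, where 1.27% and 2.29% of all genes were, and Jund was 81.8 against 93.7 CPM and Fos 3.02 against 1.65 CPM (edgeR adjusted p = 0.949 each). No gene of these lists passed the adjusted threshold of edgeR in either comparison.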

How the data were processed

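RNA from the left ventricle of 30 mice was made into stranded total RNA libraries and sequenced, and the authors quantified the reads with Salmon against the GENCODE mouse transcriptome of GRCm38. They deposited whole-number counts per gene for the peptide study and estimated counts per transcript for the antibody study, which were summed to genes and rounded here. The study's methods name a later GENCODE release than vM21, the release used here. The share of transcripts matched to GENCODE vM21 was 99.21%, and the others, holding 0.38% of the estimated counts, were kept as rows of their own. The peptide table has 1 further count column that fits no label, and it was left out. How transcripts became genes in the peptide table, and the Salmon version, are not given in the sources used here.

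Each comparison was fitted within its own table with edgeR 4.0.16 in R 4.3.3 (TMM factors, genes averaging 10 or more counts a heart, robust quasi-likelihood test, two-sided, no covariate, Benjamini-Hochberg adjustment over all genes tested). The SE is the size of the log2 fold change divided by the square root of the F statistic. Log2 CPM used a prior count of 2. Relations with Abra were tested with 100000 permutations of hearts within groups. DESeq2 1.42.0, limma-voom 3.58.1, other scalings and filters, covariates and leaving out each mouse were the alternatives. The scripts were tested on simulated data. Total counts of 4478991 to 8310478 per heart limit the precision of the lowest genes, and an SE covers the spread between mice.

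The 8 genes, the lists and the tests were chosen with earlier results of these data known. The text names all 8 genes, the 2 genes with the smallest p of each of 5 other lists in each comparison, and the 5 other genes most like Abra. Libraries were also checked against 11 lists of cell type and stress markers. Beyond the atrial and smooth muscle lists, the 6 adipocyte markers together reached 768 CPM in Aβ42 hearts and 93.6 CPM in ScrAβ42 hearts, and 9.7 and 9.4 CPM with 3D6 and the control antibody. The 11 fast skeletal muscle markers stayed between 12.1 and 268 CPM, the 6 fibroblast markers between 462 and 2360 CPM, the 5 endothelial markers between 571 and 1040 CPM and the 5 leukocyte markers between 22.0 and 137 CPM. The 5 mesothelial markers ranged from 3.5 to 205 CPM, the 5 blood markers from 534 to 17700 CPM and the 6 handling and heat shock genes from 296 to 1460 CPM.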

Additional observations from a re-analysis of the deposited data

Results flagged for a closer look

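Each gene was checked in each group for a heart far from the others, by comparing its gap to the nearest heart with the range of the group on the log2 CPM scale, and 3 of 32 groups had one, where chance gives about 1 in 20. Ankrd23 was 8.929 CPM in mouse Abeta42_3457, with the other 6 Aβ42 hearts between 19.16 and 23.22 CPM. Control antibody mouse 22 stood apart for a pair of genes, with Acta1 at 35.2 CPM against 161.3 to 430.2 CPM in the other 7 control hearts, and Ankrd23 at 180.7 CPM against 394.0 to 648.2 CPM. On the CPM scale, tried after seeing the data, the same rule picked Ankrd23 in mouse Abeta42_3457 and, in place of control mouse 22, Acta1 in mouse ScrAbeta42_3448, at 867.1 CPM against 59.07 to 310.4 CPM in the other 6 hearts.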

How the results depend on the processing

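The number of genes with an adjusted p under 0.05 was 0 in both comparisons and stayed 0 except as follows. With Aβ42 it was 12 in DESeq2 and 1 with no filter on low counts, and 0 to 4 when single mice were left out (4 without mouse Abeta42_3452, 1 without mouse ScrAbeta42_3448). With 3D6 it was 1 with the mitochondrial share as a covariate, and 0 whichever mouse was left out. The 748 genes at an unadjusted p under 0.05 with Aβ42 became 1417 with no filter and 1229 with the mitochondrial covariate, and 565 to 1226 without single mice, the highest without mouse ScrAbeta42_3448. The 437 genes with 3D6 became 1224 with no filter, and 254 to 753 without single mice (254 without 3D6 mouse 4, 753 without control mouse 8). Of the 437 genes 156 were higher and 281 lower. This split became 85 and 435 when scaled to the library total, and 265 and 249 with the mitochondrial covariate.

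The log2 fold change of Abra with Aβ42 kept its sign in all 25 alternatives, from -0.73 to -0.59 when single mice were left out and -0.49 without hearts with Myl7 above 50 CPM, a threshold chosen after seeing the data. In the peptide study 1 of 7 relations with Abra passed. This became 2 when scaled to the library total, where Ankrd1 passed too, and 0 without the 2 hearts farthest from the median of Abra, without the 2 farthest from their group mean (an alternative added after seeing the data) or without hearts with Myl7 above 50 CPM, and it was 0 to 1 without single mice. In the antibody study 6 passed, 1 without the 2 hearts farthest from the median, 2 without the 2 farthest from their group mean, and 3 to 6 without single mice, the lowest without control mouse 22. The cause of these changes was not tested. No paired analysis was possible because the mouse numbers of the groups compared are all different. The fewest counts were those of Ankrd23 in the peptide table, 65 to 189 per heart.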
